A study of Mus musculus with 3 samples.

Results

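The wide Tbr2 peaks were the stretches of at least 1200 bp in the list of Tbr2 binding sites from the embryonic mouse cerebral cortex. They numbered 790 of the 14321 Tbr2 peaks on chromosomes 1 to 19, or 5.52%, and of 14539 Tbr2 peaks in all. A further 3 peaks of this width lay on the sex chromosomes and were left out. Width, taken from the deposited list, chose the members, so width, tags, fold change and p-value, which come from the same library, are given as description only. The members and the narrower peaks set beside them are shown in the plot of width against tags.

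Binding was mapped by chromatin immunoprecipitation followed by sequencing (ChIP-seq) in wild-type C57BL/6 embryos at E14.5, a stage at which excitatory neurons of the cortex are being produced. There were 3 libraries, 1 with a commercial antibody against Tbr2, 1 with a non-commercial antibody against Neurog2 and 1 of input chromatin without antibody. All came from whole cortical tissue, which mixes progenitors and neurons, and how many embryos were pooled is not given in the sources used here. Every library was used once. No spread between experiments can therefore be given, and the bracketed ranges below are 95% intervals, which cover counting over peaks only, unless they are called interquartile.

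Tbr2, the product of Eomes, is a T-box transcription factor that marks intermediate progenitors, the dividing cells between radial glia and the glutamatergic neurons of the cortex. Neurog2 is a proneural basic helix-loop-helix factor that acts in the same lineage and binds E-box sequences. A peak caller reports a peak where tags, the mapped ends of immunoprecipitated fragments, exceed the local background. The width of a peak is the extent of that enrichment, so a long peak can hold 1 broad or several adjoining places of binding.

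**Figure D1:**
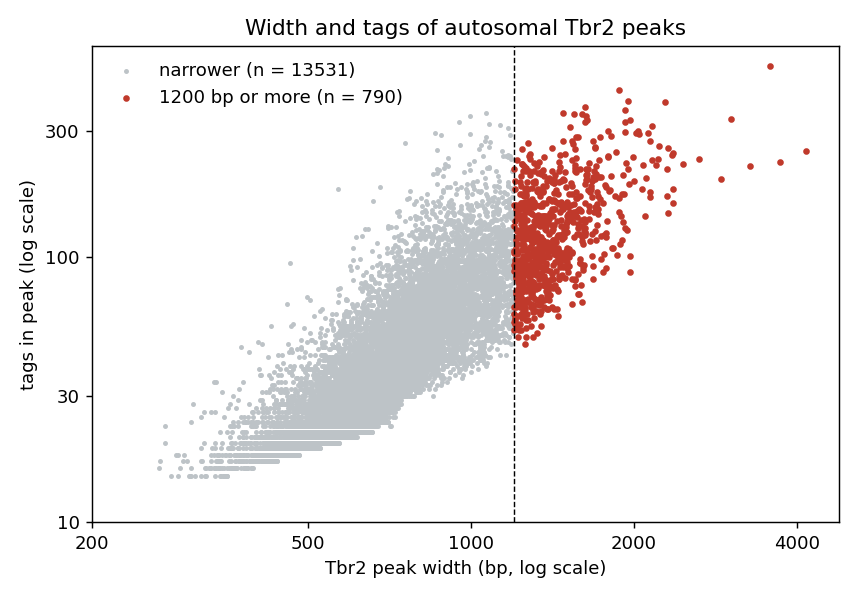
Width in bp against the number of tags for each autosomal Tbr2 peak, both on log scales. The 790 peaks at or right of the dashed line at 1200 bp are the wide ones, which hold 47 to 527 tags, and narrower peaks with as many tags exist up to 352 tags.

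Most wide peaks were only moderately longer than the limit. Their median width was 1359 bp (interquartile range 1269 to 1531), and the widest reached 4156 bp. Of the 790, 273 measured 1200 to below 1300 bp, 294 measured 1300 to below 1500 bp, 189 measured 1500 to below 2000 bp and 34 measured 2000 bp or more. The narrower peaks had a median width of 693 bp. The limit did not fall at a gap in the widths. The members just inside were 1200 bp (chromosome 11 at 107298578 to 107299777, 61 tags) and 1201 bp (chromosome 10 at 19234020, 53 tags, and chromosome 12 at 113828613, 158 tags), and the 3 peaks just outside were each 1199 bp, with 142, 63 and 71 tags.

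Wide peaks were rich in tags. They held a median of 119 tags (112 to 123, interquartile range 88 to 162), against 37 for all narrower peaks, and none held fewer than the autosomal median of 39. They made up 69 of the 100 autosomal Tbr2 peaks with the most tags and 443 of the 1000 with the most. Together they covered 10.6% of the autosomal peak length and held 14.6% of the tags in autosomal peaks.

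To compare peaks of similar tag number, narrower peaks were weighted so that their tag numbers were distributed as those of the wide ones. For 5 wide peaks, of 370 tags or more, there was no narrower counterpart. After weighting, narrower peaks had a median of 115 tags within 957 bp. Their tags were packed more closely, at a median of 12.0 per 100 bp (interquartile range 9.27 to 16.1) against 8.25 (interquartile range 6.39 to 11.0) in wide peaks, a ratio of 1.46. Over all narrower peaks, most of them with far fewer tags, the median was 5.34. The median fold change over background was 24.9 (interquartile range 17.4 to 36.0) in narrower peaks of like tag number against 16.2 (interquartile range 11.1 to 23.5), a ratio of 1.54. A lower density is what the choice by width gives at a fixed tag number, so these values describe how the members were built and are not findings about them.

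Density ranged from 3.73 to 23.7 tags per 100 bp among the members. Across the 790, density followed the tag number (Spearman rho 0.93) far more than the width (0.17), and tags and width were correlated at 0.47. The choice by width leaves out all widths below 1200 bp. Over all 14321 autosomal Tbr2 peaks, density had a rho of 0.88 with tags and 0.53 with width. Tags and width there reached 0.86. These correlations are across peaks of 1 library, and density contains both other measures.

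The wide peaks with the closest-packed tags lay on chromosome 3 at 67875091 to 67876571 (23.7 tags per 100 bp, 351 tags), chromosome 6 at 55870013 to 55871888 (22.9, 430 tags), chromosome 15 at 7143965 to 7145586 (22.8, 370 tags), chromosome 11 at 112958915 to 112960461 (22.5, 348 tags) and chromosome 1 at 195986825 to 195988428 (21.6, 347 tags). Their fold changes were 44.6, 62.8, 83.7, 26.5 and 26.4. The Neurog2 peaks inside them numbered 0, 2, 1, 0 and 3, so dense and wide Tbr2 binding was found with and without listed Neurog2 binding.

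At the other end, the sparsest members had 3.73 to 4.08 tags per 100 bp. They lay on chromosome 13 at 16853953 to 16855211, chromosome 9 at 65908714 to 65910014, chromosome 7 at 38299604 to 38300927, chromosome 18 at 65309224 to 65310487 and chromosome 5 at 118549218 to 118550565. They held 47 to 55 tags at fold changes of 4.82 to 7.83. Those on chromosomes 9 and 5 each held 1 Neurog2 peak.

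Neurog2 peaks come from another library and did not enter the choice of members. Of the wide peaks, 345 of 790, 43.7% (40.3 to 47.2), overlapped at least 1 Neurog2 peak by at least 1 bp. Over all autosomal Tbr2 peaks the share was 14.0%. At like tag number narrower peaks reached 40.7% (37.9 to 43.6), against 43.3% of the 785 wide peaks with a counterpart, a difference of 2.57 percentage points (-1.91 to 7.06). With coarser bins, 1 per doubling of tags, the difference was 4.64 points (0.303 to 8.99), and against narrower peaks below 800 bp, with an effective number of only 40, it was 17.4 points (1.76 to 29.0). With Tbr2 peaks under 300 bp apart joined first, it was 0.0557 points (-4.01 to 4.14). Under the other settings tried, the interval also included 0. Whether it did so thus depended on the bins and on the narrower peaks used.

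Sharing rose with tags in wide and narrower peaks alike. Among peaks of 32 to 63 tags, 7 of 38 wide peaks (18.4%, 9.22 to 33.4) and 11.0% of 6060 narrower ones held a Neurog2 peak. At 64 to 127 tags the shares were 32.4% (28.0 to 37.0) of 408 and 30.1% (28.2 to 32.1) of 2103. At 128 to 255 tags they were 58.9% (53.3 to 64.3) of 304 and 148 of 296 (44.3% to 55.7%). At 256 to 511 tags the order turned, with 26 of 39 wide peaks (66.7%, 51.0 to 79.4) and 13 of 18 narrower ones (72.2%, 49.1 to 87.5). In each of these ranges the intervals of wide and narrower peaks overlapped, at 128 to 255 tags only from 53.3% to 55.7%. Such overlap does not show that the shares were equal. The difference within a range was not tested.

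**Figure D2:**
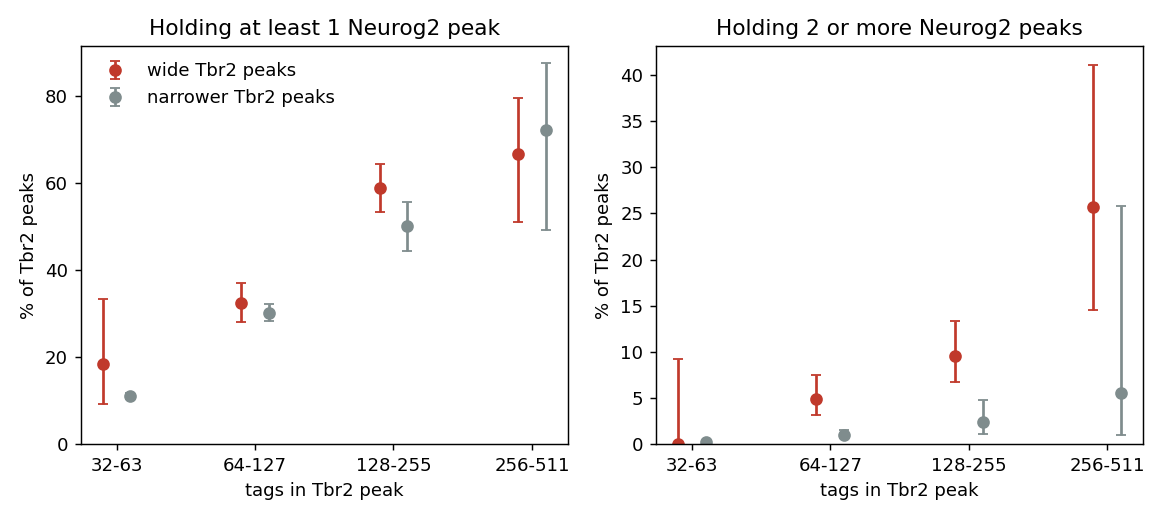
Percent of Tbr2 peaks that hold at least 1 (left) or 2 or more (right) Neurog2 peaks, by tags in the Tbr2 peak, for wide (red) and narrower (grey) peaks. Points are shares and bars 95% Wilson intervals over peaks. The bars overlap throughout the left panel, which does not show equal shares. In the right panel they lie apart at 64 to 127 and 128 to 255 tags.

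Wide peaks more often held several Neurog2 peaks. There were 2 in 53 of them and 3 in 6, together 59 of 790 or 7.47% (5.83 to 9.51), and the share over all autosomal Tbr2 peaks was 0.726%. Narrower peaks of like tag number held 2 or more in 1.79% of cases (1.17 to 2.75), which is 5.47 points lower (3.59 to 7.59). Among peaks with any Neurog2 peak, 17.1% (13.5 to 21.4) of wide and 4.40% (2.71 to 7.07) of like narrower peaks held more than 1. The share with several was 4.90% (3.20 to 7.45) of wide peaks against 0.999% (0.654 to 1.52) of narrower ones at 64 to 127 tags, and 9.54% (6.72 to 13.4) against 2.36% (1.15 to 4.80) at 128 to 255 tags. At 256 to 511 tags the intervals overlapped, with 25.6% (14.6 to 41.1) of 39 wide peaks and 5.56% (0.988 to 25.8) of 18 narrower ones. At 32 to 63 tags, 0 of 38 wide peaks held several, which allows a share of up to 7.89% (3 peaks). Of the 6060 narrower peaks in that range, 0.231% (0.138 to 0.387) did.

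Per unit of length the order was the other way, though not detectably so against narrower peaks below 800 bp. Wide peaks contained 0.358 Neurog2 midpoints per kb (0.324 to 0.395), and narrower peaks of like tag number 0.445 (0.401 to 0.493). Against narrower peaks below 800 bp the values were 0.355 and 0.358, a difference of -0.0032 (-0.141 to 0.108). The part of the greater length of wide peaks in the multiple Neurog2 peaks was not tested separately. The 410 Neurog2 peaks on wide Tbr2 peaks were 15.9% of the 2571 autosomal Neurog2 peaks.

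Sharing also differed among the wide peaks themselves. It was 37.4% (31.8 to 43.2) at 1200 to below 1300 bp, 39.5% (34.0 to 45.1) at 1300 to below 1500 bp, 54.5% (47.4 to 61.4) at 1500 to below 2000 bp and 70.6% (53.8 to 83.2) at 2000 bp or more. Median tags in these classes were 95, 111, 150 and 231, so width and tags increased together. The share with 2 or more Neurog2 peaks went from 2.93% (1.49 to 5.67) in the first class to 23.5% (12.4 to 40.0) in the last. By quartile of tags per 100 bp, 21.7% (16.5 to 28.0), 40.1% (33.5 to 47.1), 51.3% (44.3 to 58.2) and 61.6% (54.7 to 68.1) of wide peaks held a Neurog2 peak, from the sparsest to the densest.

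Neurog2 peaks lay farther from the middle in wide Tbr2 peaks than in narrower ones of like tag number. The median distance between midpoints was 241 bp (215 to 260, interquartile range 137 to 354) in the 410 pairs. In narrower peaks of like tag number it was 75.5 bp (67.5 to 82), with an interquartile range of 34.5 to 121 bp. As a share of the distance from midpoint to edge the medians were 0.346 (0.312 to 0.370) and 0.148 (0.133 to 0.175). The offset was thus larger relative to width as well. Both measures start from the Tbr2 midpoint, which is set by the edges that gave the width. The choice by width therefore enters both, and its part in them was not tested. Midpoints were within 100 bp of each other in 17.1% (13.7 to 21.0) of pairs in wide peaks and 65.1% (60.1 to 69.8) in like narrower ones. They were over 500 bp apart in 8.29% (5.99 to 11.4) of pairs in wide peaks.

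**Figure D3:**
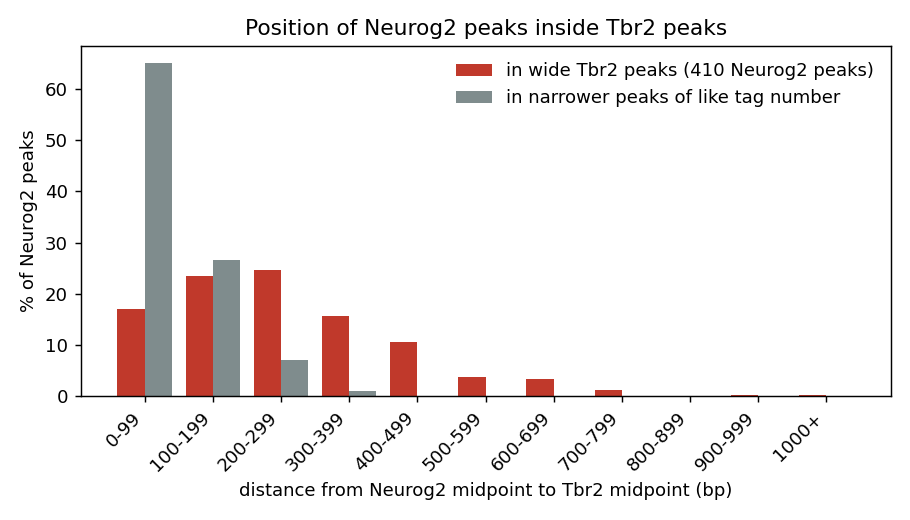
Distance from Neurog2 midpoint to Tbr2 midpoint in steps of 100 bp, as percent of the Neurog2 peaks in wide Tbr2 peaks (red, 410) and in narrower ones weighted to like tag number (grey). The first step holds 17.1% of the former and 65.1% of the latter.

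The distance of the Neurog2 midpoint from the nearer edge had a median of 473 bp (461 to 492) in wide peaks and 410 bp (396.5 to 422.5) in narrower peaks of like tag number. By Tbr2 width, the distance to the middle was 50.5 bp (45 to 58) at 600 to below 800 bp, 57.5 bp (51.5 to 63) at 800 to below 1000 bp, 106.5 bp (94 to 120) at 1000 to below 1200 bp, 192 bp (164 to 206.5) at 1200 to below 1300 bp, 220.5 bp (179.5 to 258) at 1300 to below 1500 bp, 315.5 bp (289.5 to 361.5) at 1500 to below 2000 bp and 520.5 bp (210 to 658) at 2000 bp or more. The distance to the nearer edge in these 7 classes was 304.5, 380.5, 440.0, 439, 469.5, 507 and 688.5 bp. The distance to the middle already differed between the classes of 800 to below 1000 bp and 1000 to below 1200 bp, beyond their intervals.

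In a window of fixed size, a Neurog2 midpoint lay within 200 bp of the Tbr2 midpoint in 165 wide peaks, 20.9% (18.2 to 23.9), against 12.1% of all autosomal Tbr2 peaks and 38.4% (35.6 to 41.3) of narrower peaks of like tag number. Such a window covers less of a longer peak, and the Tbr2 midpoint is set by the edges that gave the width, so the choice by width enters these shares. No side was preferred: 202 of the 410 midpoints, 49.3% (44.5 to 54.1), lay to the left. Neurog2 peaks were wholly inside the wide peak in 408 cases.

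The offset was present where a wide peak held a single Neurog2 peak. In these 286 peaks the median distance was 221 bp (interquartile range 128 to 319), and among the 124 Neurog2 peaks that shared a wide peak with others it was 283.5 bp (interquartile range 158 to 453). For single Neurog2 peaks in narrower Tbr2 peaks, not weighted by tags, it was 49.75 bp at 600 to below 800 bp. It was 56 bp at 800 to below 1000 bp and 101 bp at 1000 to below 1200 bp. The choice by width enters these distances through the Tbr2 midpoint, and its part was not tested.

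The strength of Neurog2 peaks in wide and like narrower Tbr2 peaks had overlapping intervals. Their median was 38 tags (35 to 41) in wide and 41 (37 to 43) in narrower peaks. Their tags per 100 bp had medians of 11.9 (11.6 to 12.3) and 11.8 (11.5 to 12.3), and their widths were 314 bp (297 to 333) and 331 bp (315 to 344). A single Neurog2 peak covered a median of 21.4% of a wide Tbr2 peak and 34.0% of a narrower one.

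In the 59 wide peaks with several Neurog2 peaks, the closest midpoints had a median spacing of 521 bp (interquartile range 378 to 629.5, lowest 162.5, highest 1383.5). The free gap between them was a median of 151 bp. In 52 of the 59 (88.1%) the Neurog2 midpoints lay on both sides of the Tbr2 midpoint, and in 41 the Neurog2 peak with the most tags was the one nearest to it. The most tagged Neurog2 peak had a median of 1.84 times the tags of the least tagged, and at most 6.88 times. The 45 narrower Tbr2 peaks with several Neurog2 peaks, which had fewer tags (median 69 against 171) and a median width of 977 bp against 1601 bp, had a median spacing of 280.0 bp (interquartile range 192 to 448). In these, midpoints lay on both sides in 41 (91.1%), and the most tagged was nearest to the Tbr2 midpoint in 27.

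The 6 wide peaks with 3 Neurog2 peaks each, drawn in the maps of peaks, showed various arrangements. On chromosome 16 at 77850999 to 77853279 (385 Tbr2 tags), the Neurog2 peaks had 34, 16 and 110 tags, and the most tagged, at 77852495 to 77853106, lay nearest to the right edge. On chromosome 2 at 93016689 to 93018792 (199 tags), a pair of Neurog2 peaks in the left part, with 79 and 24 tags, was separated from one in the right part at 93018282 to 93018549 with 30 tags. On chromosome 1 at 195986825 to 195988428 (347 tags), the middle Neurog2 peak was the most tagged, with 19, 83 and 55 tags from left to right.

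The other members of this group were shorter. Chromosome 17 at 3442230 to 3443788 (218 tags) held Neurog2 peaks of 25, 60 and 33 tags, with the first ending at 3442670 and the second starting at 3442673. Chromosome 10 at 92836883 to 92838348 (160 tags) held 22, 23 and 60 tags. Chromosome 12 at 52218526 to 52219871 (211 tags) held 32, 21 and 22 tags within 1346 bp. In 5 of the 6 the middle Neurog2 peak was the one nearest to the Tbr2 midpoint, and on chromosome 16 it was the left one.

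**Figure D4:**
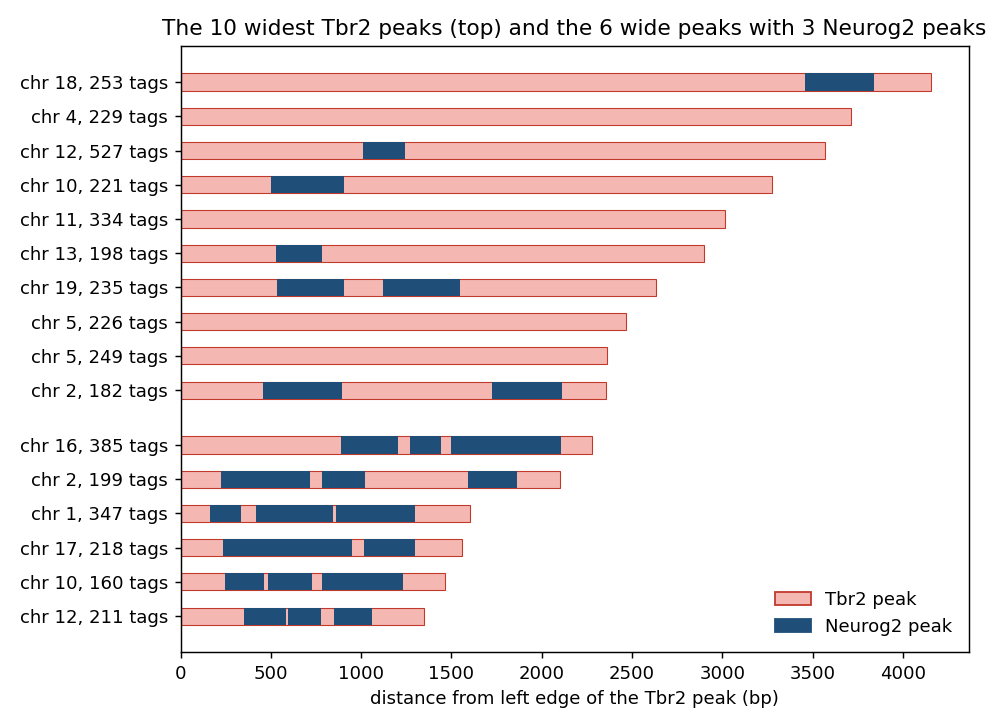
Each bar is a Tbr2 peak drawn to scale from its left edge in bp, with its Neurog2 peaks in blue and its chromosome and Tbr2 tags at the left. The upper 10 bars are the widest peaks, 2359 to 4156 bp, of which 4 hold no Neurog2 peak, and the lower 6 are those with 3 Neurog2 peaks.

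Of the 10 widest Tbr2 peaks, 6 held a Neurog2 peak. The widest lay on chromosome 18 at 55705862 to 55710017 (4156 bp, 253 tags, 6.09 tags per 100 bp, fold change 17.5), and its single Neurog2 peak of 70 tags stood 1572.5 bp from the Tbr2 midpoint. On chromosome 12 at 51220938 to 51224508 (3571 bp), the member with the most tags, 527 at 14.8 per 100 bp, held a Neurog2 peak of 30 tags, 658 bp from the midpoint. Single Neurog2 peaks also lay off the middle on chromosome 10 at 126946093 to 126949368 (221 Tbr2 tags, distance 936.5 bp) and on chromosome 13 at 28507636 to 28510534 (198 tags, distance 793 bp).

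Pairs of Neurog2 peaks were held by the peaks on chromosome 19 at 7222080 to 7224712 (235 Tbr2 tags, Neurog2 tags 50 and 59) and chromosome 2 at 168502657 to 168505015 (182 Tbr2 tags, Neurog2 tags 106 and 70). On chromosome 19 the pair stood 599 and 19 bp from the midpoint. On chromosome 2 the pair stood on opposite sides of the midpoint, at 504 and 737 bp. No Neurog2 peak was listed on chromosome 11 at 24270101 to 24273114 (334 tags, fold change 44.4), on chromosome 5 at 132430898 to 132433364 (226 tags) and 99907873 to 99910235 (249 tags), or on chromosome 4 at 145146508 to 145150219. The last had 229 tags over 3712 bp but a fold change of 3.25, the lowest among the wide peaks.

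Wide peaks without Neurog2 numbered 445. They were less tagged, with a median of 100 tags against 138.5 in the 286 members with 1 Neurog2 peak, and slightly shorter, at 1338 against 1365.5 bp. The 5 with the most tags lay on chromosome 1 at 57385801 to 57387726 (361 tags), chromosome 3 at 67875091 (351), chromosome 11 at 112958915 (348) and 24270101 (334) and chromosome 10 at 33452054 to 33453684 (342), with fold changes of 26.0 to 44.6. Of the 445, 20 (4.49%, 2.93 to 6.84) had a Neurog2 midpoint within 5 kb beyond an edge, against 5.57% (4.21 to 7.33) of like narrower peaks without Neurog2. An unlisted Neurog2 peak does not show an absence of binding, since the depth of the Neurog2 library is unknown.

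Neighbouring Tbr2 peaks were about as frequent around wide peaks as around narrower ones of like tag number. Another Tbr2 peak lay within 12500 bp, edge to edge, of 365 wide peaks, 46.2% (42.8 to 49.7), with 35.8% over all autosomal Tbr2 peaks and 45.4% (42.5 to 48.3) among like narrower peaks. Within 1 kb the shares were 10.6% and 11.4%, within 5 kb 25.8% and 28.5%, and within 50 kb 74.2% and 74.0%. The median gap to the nearest peak was 14.8 kb and 16.0 kb. With wide peaks defined from 1500 bp the values within 12500 bp parted, at 41.3% for wide and 50.4% for like narrower peaks. The neighbours come from the list that gave the widths, so these shares are descriptions.

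**Figure D5:**
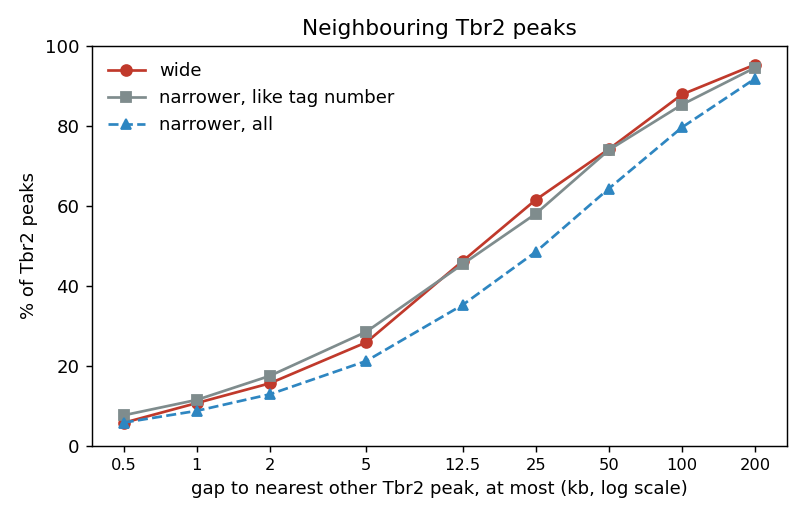
Percent of Tbr2 peaks whose nearest other Tbr2 peak lies within the gap on the x axis (kb, log scale). Wide peaks (red) and narrower peaks of like tag number (grey) run close together, with 46.2% and 45.4% at a gap of up to 12500 bp, and all narrower peaks (blue) run lower.

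The neighbours of wide peaks were wide about as often as those of other peaks. The nearest Tbr2 peak was itself wide for 46 members, 5.82% (4.39 to 7.68), with 5.54% over all autosomal Tbr2 peaks and 6.28% (5.01 to 7.85) of narrower peaks of like tag number. The nearest neighbour had a median width of 733 bp and 43 tags. Where it lay within 12500 bp it had fewer tags than the wide peak in 333 of 365 cases (91.2%). Wide peaks held at least 47 tags, against an autosomal median of 39, so the choice by width enters this share. In 79 of the 365 (21.6%) the neighbour held a Neurog2 peak of its own, with 14.0% over all autosomal Tbr2 peaks. Neither share was computed for neighbours of narrower peaks. Wide peaks with a neighbour within 12500 bp held a Neurog2 peak in 49.3% of cases (44.2 to 54.4) and those without in 38.8% (34.3 to 43.5), at median tags of 122 and 115.

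The members with the most other Tbr2 peaks within 50 kb included 3 from a single stretch of chromosome 2, at 146116100 to 146117401, 146135147 to 146136509 and 146149975 to 146151216. These had 9, 10 and 10 other peaks within 50 kb and 120, 69 and 67 tags, and the first and second held 1 Neurog2 peak each. The others were on chromosome 4 at 97276420 to 97277639 (9 other peaks, 119 tags, 1 Neurog2 peak) and chromosome 1 at 178876096 to 178877656 (8 other peaks, 211 tags, 2 Neurog2 peaks). At the other extreme 96 wide peaks, 12.2%, were over 100 kb from any other, with 14.7% of narrower peaks of like tag number and 20.4% of all narrower ones.

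Separately listed peaks can stand so close that they span as much as a wide one. There were 240 runs of narrower Tbr2 peaks under 300 bp apart that spanned 1200 bp or more, 234 of them pairs. They spanned a median of 1611 bp with 96.5 tags and 5.91 tags per 100 bp, and 28.8% (23.4 to 34.8) met a Neurog2 peak. Of the wide peaks, 29 had another Tbr2 peak under 300 bp away, the closest at 3 bp. When peaks under 300 bp apart were joined first, 1030 peaks were wide. Of these 40.4% held a Neurog2 peak, against 40.0% of narrower peaks of like tag number.

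A low fold change was about as common among wide peaks as in the whole list, but more common than in narrower peaks of like tag number. It was below 5, a limit chosen after the values were seen, in 12 wide peaks or 1.52%, against 1.59% of all autosomal Tbr2 peaks and 0.342% of narrower peaks of like tag number. For the 785 wide peaks with a counterpart, the difference from the like narrower peaks was 1.19 points (0.335 to 2.33). Of the 12, 6 lay on chromosome 4, and 3 of these stood within 2 Mb, at 145146508 to 145150219, 146022779 to 146025134 and 146959181 to 146961150. They held 229, 161 and 88 tags at fold changes of 3.25, 3.26 and 4.24. A Neurog2 peak was present in 3 of the 12. Without Tbr2 peaks of fold change below 5, 44.0% of 778 wide peaks held a Neurog2 peak.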

How the data were processed

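Tbr2 and Neurog2 ChIP-seq peaks of E14.5 mouse cortex were used, with 1 list per factor. Fixation used disuccinimidyl glutarate (2 mM, 45 min) followed by formaldehyde (1%, 10 min), per the labels. The submitters' processing notes name Bowtie 0.12.3, MACS 1.4 and build mm9, without settings or the control used. The authors deposited each peak's position, fold change, FDR, p-value and tags as text. The deposited score column is 750 throughout and was not used. A score was computed as -10 log10 of the p-value. Depth is unknown, so tags were not scaled.

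Positions are mm9, counted from 1. The gene and promoter tables at hand were GRCm38.p6, so no gene or sequence was assigned, and the planned promoter and motif description was not run. Peaks overlapped when they shared at least 1 bp. Narrower peaks were weighted to the wide peaks' tag numbers, each doubling of tags being split into 2 bins, which left 4824 narrower peaks with an effective number of 1130. Shares have Wilson intervals, medians order-statistic intervals and midpoints per kb Poisson intervals. Weighted values use the effective number, and differences Newcombe's method. No test across conditions was possible with 1 library per factor. Overlaps were checked against bedtools, and the weighted difference in sharing on simulated Neurog2 peaks. The deviation allowed in the simulation was larger than the reported difference of 2.57 points, so it cannot check a difference of that size. It did not check counts of several Neurog2 peaks or their positions. Python 3.11.15, NumPy 2.4.6, pandas 2.3.3, SciPy 1.17.1 and statsmodels 0.14.6 were used.

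Members and comparisons were chosen with earlier results of these data known. Named regions were the 10 widest, those with 3 Neurog2 peaks, the 5 densest and 5 sparsest in tags, the 5 most tagged without Neurog2, the 5 with most Tbr2 peaks within 50 kb, and 3 on each side of the limit. Alternatives changed the width limit, bins, overlap rule, score limits and neighbour distance.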

Additional observations from a re-analysis of the deposited data

How the results depend on the processing

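Of 78 values recomputed for 10 results, 41 stayed within the interval of the reported value and 37 did not. The cause was not tested. Where 2 values follow, the first is of wide and the second of narrower peaks of like tag number. With wide peaks defined from 1000 bp (1806 peaks), 36.5% of wide and 33.0% of like narrower peaks held a Neurog2 peak, 4.37% of wide held several, like narrower peaks had 11.03 tags per 100 bp and 0.395 midpoints per kb, and the offset of Neurog2 as a share of the distance from midpoint to edge was 0.266. From 1500 bp (223 peaks), the sharing was 57.0% and 51.7%, several were held by 16.1%, tags per 100 bp were 9.41 and 14.2, midpoints per kb 0.421 and 0.506, the offset share 0.397, and neighbours within 12500 bp 41.3% and 50.4%. With Neurog2 scores of at least 100, sharing was 33.7% and 29.5%, several 3.42%, and midpoints per kb 0.256 and 0.313. With Tbr2 scores of at least 100, neighbours were 32.9% and 31.0%. Neighbours within 5 kb gave 25.8% and 28.5%, and within 50 kb 74.2% and 74.0%. Whole-octave bins (1 per doubling of tags) gave like narrower peaks 11.6 tags per 100 bp. Narrower peaks below 800 bp, with an effective number of only 40, had 25.9% sharing (17.4 points below wide peaks, 1.76 to 29.0), 15.2 tags per 100 bp, 0.358 midpoints per kb (0.355 in wide peaks) and 33.3% with neighbours. Joining Tbr2 peaks under 300 bp apart, chosen after seeing the data, gave 7.62 and 11.7 tags per 100 bp, 0.314 midpoints per kb in wide peaks, an offset share of 0.385 and 41.8% of like narrower peaks with neighbours. Under each setting wide peaks had fewer tags per 100 bp than like narrower ones, as the choice by width gives at a fixed tag number. No paired analysis was possible because each factor has 1 library. Depth is unknown, so weak Neurog2 binding may be unlisted.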

Other observations

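Wide peaks were spread over all 19 autosomes. Their share of the Tbr2 peaks of a chromosome ran from 4.32% on chromosome 6 (3.17 to 5.88) to 6.75% on chromosome 12 (5.17 to 8.76), with overlapping intervals.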
